A study of Arabidopsis thaliana with 12 samples.

Results

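Wild-type (WT) Arabidopsis thaliana seedlings that received bleomycin (BLM) and INA together were compared with untreated seedlings, across every probe set of the array other than the manufacturer's control probe sets. Members were chosen by the array titles: the 3 arrays titled BLM+INA and the 3 arrays titled CK, which together are 6 of the 12 arrays of the series. The BLM+INA group received 4 µg/ml BLM and 10 µM INA, the BLM group 4 µg/ml BLM alone, the INA group 10 µM INA alone, and the control group (CK) neither agent. All 4 groups had the same genotype and the same growth on MS plates, and each held 3 biological replicates with 1 array each. Seedling age and length of treatment are not given in the sources used here. RNA came from whole seedlings, so fewer cells of a type and less RNA per cell cannot be told apart in any value below.

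BLM is an antibiotic that cuts DNA, and plant cells answer broken DNA mainly through the transcription factor SOG1, which raises repair genes and holds back genes of mitosis. INA (2,6-dichloroisonicotinic acid) acts like salicylic acid, the hormone of immunity against biotrophic microbes, and works through the co-activator NPR1, WRKY factors and the pathogenesis-related genes. Root growth depends on dividing cells at the tip, and then on expansins, xyloglucan enzymes and class III peroxidases that loosen or stiffen the wall as cells elongate and form hairs. The series title names the question, whether damage to DNA and an inducer of immunity act together on defence genes. Described here is the total state under both agents: which defence, stress, growth and root functions moved, and by how much.

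Each value below is a log2 value centred on the median of that probe set over the 12 arrays, so it gives a difference between arrays and no expression level. Array medians lay between -0.0208 and 0.0256, and the SD of an array's values around its group's means was 0.109 to 0.148. A gene table paired 13513 of the 22746 tested probe sets with exactly 1 gene, and names are given only for these. Markers of both organs were present in the labelled tissue. The root glucosidase PYK10 and the photosystem I subunit PSAN each had a lowest RMA level of at least 8 over the 12 arrays, a class inferred from the number format of the stored values. Of 6 pairs of control probe sets for the 3′ and 5′ ends of a sample transcript, 2 had higher 3′ minus 5′ differences on all BLM+INA arrays than on all control arrays. For ubiquitin these differences were 0.0309 to 0.048 with BLM+INA and -0.144 to 0.0274 in control, and for the r2 ubiquitin pair they were 0.0551 to 0.294 with BLM+INA and -0.141 to -0.103 in control. Their part in the results was not tested.

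Among probe sets with a gene name, the 20 largest rises included those of a lectin, a RING protein, calcium-binding proteins, a receptor kinase and WRKY53, and ranged from 7.39-fold to 57.8-fold. The 20 largest falls included those of jacalin lectins, class III peroxidases, a defensin-like gene and lipid transfer proteins. Both sets hold only genes past the threshold below, with no overlap between the arrays of both groups. That separation was a condition of naming them and no result. In limma's test, with p-values adjusted by Benjamini-Hochberg over all 22746 probe sets and a threshold of 0.05, 5047 probe sets changed (22.2%). Of these, 2538 were higher (11.2%) and 2509 lower (11.0%) with BLM+INA. The sizes were less even than the counts. At least 2-fold, 570 were higher (2.51%) and 326 lower (1.43%), together 3.94%. At least 8-fold, 52 were higher and 5 lower, and at least 32-fold, 11 were higher and 0 lower.

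**Figure D1:**
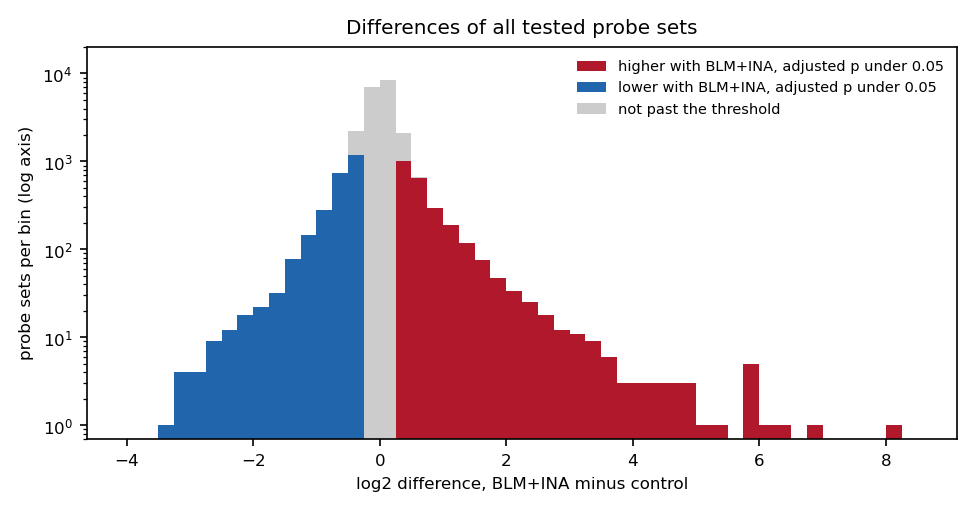
Histogram of the log2 difference, BLM+INA minus control, of the 22746 tested probe sets (x axis) on a log count axis (y axis), with probe sets past the adjusted p of 0.05 in red (higher) and blue (lower). The right tail reaches 8.25 and the left tail -3.48.

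Most changes were small. The median change was 0.57 among the probe sets that rose and -0.52 among those that fell, against a median difference of 0.0177 over all probe sets and a median standard error of 0.115. The 3 BLM+INA arrays lay above the 3 control arrays in 19.3% of probe sets and below them in 18.3%, and 21.8% passed the threshold without overlap. Of the changed probe sets, 2649 have exactly 1 gene in the gene table and 2294 are not listed there, so a large share of the response carries no gene name here.

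The highest-ranking named gene was AT5G03350, of the legume lectin family of carbohydrate-binding proteins. Its values were 2.23, 2.19 and 2.29 with BLM+INA and -3.65, -3.69 and -3.51 in control. The arrays of each group lay close together and the groups were far apart. The rise was 5.85 ± 0.13 on the log2 scale (SE, n = 3 arrays per group, limma adjusted p = 2.03e-14), which is 57.8-fold. AT5G60250, a RING-type zinc finger protein, had 2.27, 2.26 and 2.19 with BLM+INA and -2.95, -2.73 and -2.51 in control, a 31.3-fold rise. The groups did not overlap, as the rule for naming required.

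Calcium and surface receptors came next. AT2G41090, a calmodulin-like EF-hand protein, had 1.88, 1.81 and 1.79 with BLM+INA against -2.89, -2.62 and -2.53 in control (22.7-fold). The receptor kinase gene AT1G35710, with leucine-rich repeats, had 2.80, 2.67 and 2.69 against -1.71, -1.85 and -1.46 (21.0-fold). AT4G27280, a further EF-hand gene, was more variable, at 1.41, 0.93 and 1.86 with BLM+INA and -1.86, -1.54 and -1.13 in control, and rose by 2.91 ± 0.39. All 3 separated the groups, as the rule for naming required. The genes AT3G04210 and AT1G72900 encode proteins with the TIR domain of intracellular immune receptors and rose 9.97-fold and 7.94-fold. AT5G55450, of the lipid transfer family, rose 20.3-fold.

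AT5G52750 and AT5G52760 are neighbouring loci whose proteins carry a heavy-metal-associated domain. AT5G52750 had 3.12, 2.86 and 3.46 with BLM+INA and -0.82, -1.21 and -0.98 in control. AT5G52760 had 3.37, 2.85 and 3.1 with BLM+INA and -0.67, -0.59 and -0.53 in control. The pair moved alike, by 4.15 ± 0.18 and 3.70 ± 0.16. The RING ligase RING1 (AT5G10380), known from programmed cell death, rose 13.2-fold, with 2.25, 1.93 and 2.03 under BLM+INA against -2.05, -1.50 and -1.4 in control. The lipase-type hydrolase AT5G24210 rose 11.3-fold and the methyltransferase-type AT2G32160 rose 9.01-fold.

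Transcription factors of immunity and stress were among the top 20. WRKY53 (AT4G23810), a WRKY factor of defence and leaf senescence, had 2.59, 2.39 and 3.46 with BLM+INA and -0.67, -0.72 and -0.76 in control, a rise of 3.52 ± 0.18 (adjusted p = 2.67e-10) or 11.5-fold. STZ (AT1G27730), also called ZAT10, a zinc finger repressor of abiotic stress, had 2.14, 1.69 and 2.54 with BLM+INA and -1.94, -1.50 and -1.52 in control, a rise of 3.78 ± 0.34. The treated arrays were more spread than the control arrays for WRKY53.

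**Figure D2:**
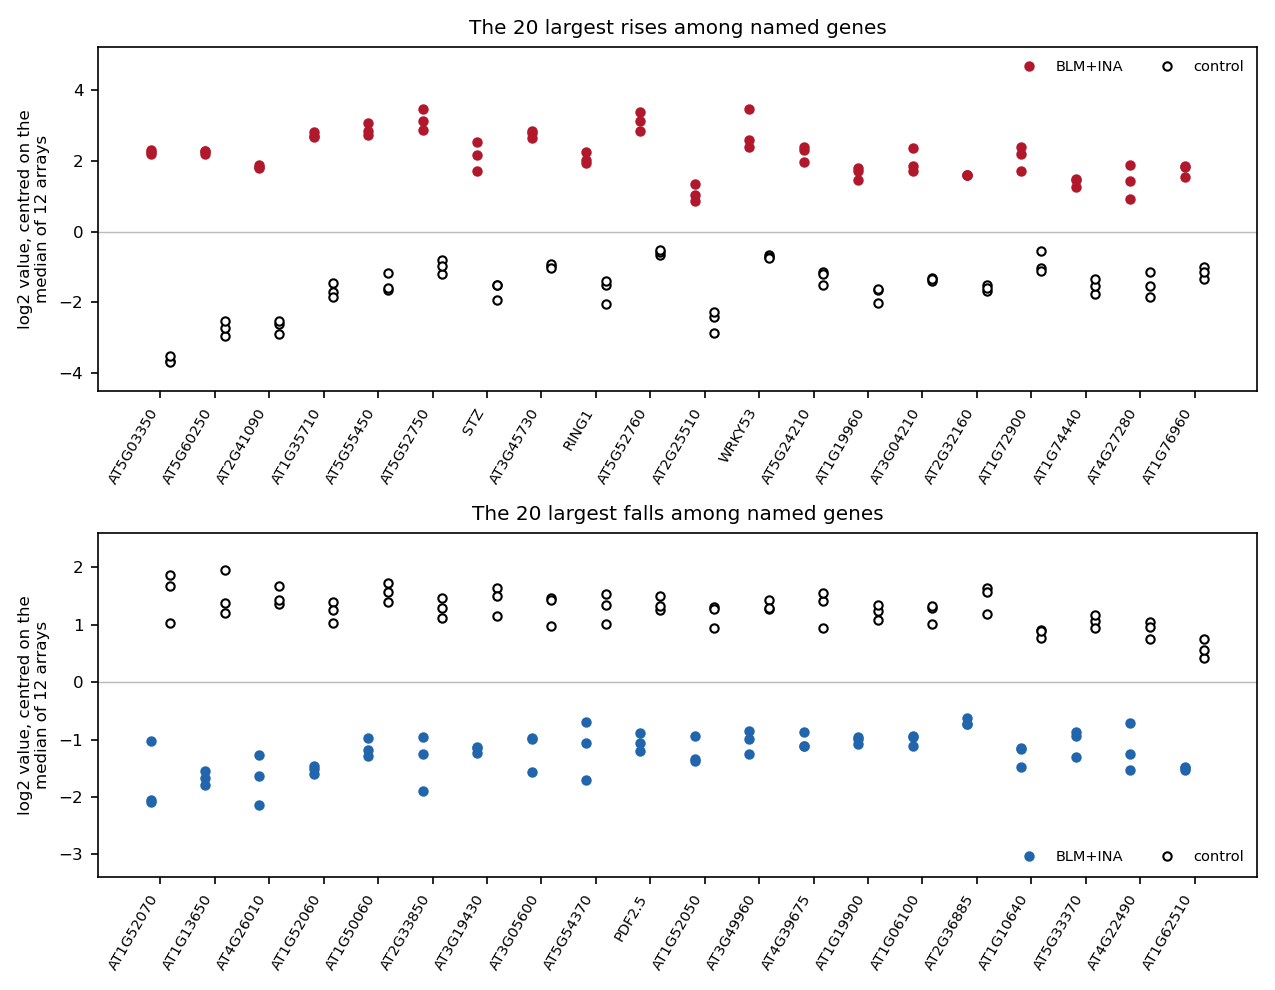
Log2 value of each array, centred on the median of 12 arrays (y axis), for the 20 largest rises (upper panel) and 20 largest falls (lower panel) among named genes, with filled points for the 3 BLM+INA arrays to the left of open points for the 3 control arrays. The groups overlap in none of the 40 genes, which the rule for naming them required.

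Of 46 symbols in the salicylic acid list, only 4 were measured under a gene name, so the count describes few of the listed genes. All 4 rose, with a median of 1.21, against 11.2% of all probe sets higher and a median of 0.0177 over all. Besides WRKY53 these were SAG101, a partner of EDS1 in immune signalling, the glutaredoxin GRX480, which meets TGA factors, and UGT76B1, a glucosyltransferase of salicylic acid and isoleucic acid. SAG101 had 1.29, 0.50 and 1.08 with BLM+INA and -0.46, -0.42 and -0.34 in control and rose 2.57-fold. GRX480 had 0.84, 0.45 and 0.67 with BLM+INA and -0.34, -0.61 and -0.25 in control. Neither overlapped. UGT76B1 rose by 0.98 ± 0.14. NPR1 and the pathogenesis-related genes were not among the 4.

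The pattern-triggered immunity list moved less evenly, and its count gives no direction for the pathway itself. Of 6 measured members 4 rose and 0 fell (median 0.71), against 11.2% of all probe sets higher and 11.0% lower. The risers were the U-box ligases PUB24 (1.42 ± 0.13) and PUB23 (0.87 ± 0.15), WRKY22 (0.74 ± 0.15) and EFR (0.69 ± 0.13). EFR is the receptor of bacterial elongation factor Tu. PUB22, from the same small ligase group, stood at -0.26 ± 0.11 and the receptor-associated kinase BIK1 at 0.24 ± 0.13, with adjusted p = 0.119 and 0.216 in limma's test. PUB24 had 1.33, 0.78 and 1.07 with BLM+INA and -0.36, -0.38 and -0.35 in control, so its 3 treated arrays were all high. In the whole PUB family 5 of 9 probe sets rose and 0 fell (median 0.29), against 11.2% and 11.0% of all. PUB26 rose by 0.77 and PUB25 by 0.64. PUB43 passed at 0.29, but not without BLM+INA replicate 1 (0.22, adjusted p = 0.166) or without any other single array except BLM+INA replicate 3.

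The WRKY symbols covered 6 probe sets, of which 5 rose and 0 fell, with a median of 0.64. Over all probe sets 11.2% were higher and 11.0% lower. Without BLM+INA replicate 1, 3 WRKY probe sets rose. After WRKY53 the next was WRKY47, with 0.71, 0.27 and 0.64 under BLM+INA and -0.34, -0.18 and -0.32 in control (1.77-fold). WRKY42 stood at -0.22 and did not pass. WRKY6 passed at 0.54 but not without BLM+INA replicate 1 (0.35, adjusted p = 0.0559), and WRKY20 lost its call without any of 4 single arrays, with values from 0.31 to 0.38.

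Glutamate receptor-like genes encode calcium-permeable channels, some of which carry wound and defence signals. Of 8 GLR probe sets, 2 rose and 0 fell (median 0.09), a share of 25.0% changed, near the 22.2% of all probe sets. GLR2.7 had 1.45, 1.08 and 0.69 with BLM+INA and -0.46, -0.13 and -0.35 in control, a 2.62-fold rise. GLR1.4 had 1.4, 1.03 and 1.23 with BLM+INA and -0.17, 0.00 and -0.29 in control, a rise of 1.37 ± 0.13. The other 6 members did not pass. The tetraspanin TET8, a membrane protein of extracellular vesicles, rose by 1.13 ± 0.15. It was the largest of 3 rises beside 1 fall among 15 TET probe sets (median -0.02), against 11.2% higher and 11.0% lower of all. TET9, another of the 3, lost its call without BLM+INA replicate 1 (0.25, adjusted p = 0.127). The same held without any other single array except BLM+INA replicate 3, without which 2 TET probe sets fell.

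The jasmonate and ethylene list, which serves defence against necrotrophs, gave 1 rise and 0 falls in 7 probe sets (median 0.09). That is 14.3% higher, near the 11.2% of all probe sets, of which 11.0% were lower. PDF1.4, a defensin, rose by 0.81 ± 0.15. PDF1.2, the usual marker of the jasmonate and ethylene branch, had -0.30, -0.17 and 0.08 with BLM+INA and -0.02, 1.55 and 0.29 in control, and PDF1.2b had 0.23, 0.08 and 0.03 against -0.23, 1.41 and 0.51. Control replicate 2 was high for both, and the groups overlapped. PDF1.2 did not pass (-0.74 ± 0.26, adjusted p = 0.0535), but passed without control replicate 1 (-1.05, adjusted p = 0.00583) and without control replicate 3 (-0.89, adjusted p = 0.0397). PDF1.2b passed without control replicate 1 alone (-0.85, adjusted p = 0.00586).

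Of 26 cytochrome P450 probe sets, whose enzymes oxidise small molecules, 8 rose and 1 fell (median 0.10). These are 30.8% and 3.85%, against 11.2% and 11.0% of all probe sets. With any single array left out, 6 or 7 rose (23.1% or 26.9%) and 1 fell. The CYP71B subfamily gave the 6 largest rises. CYP71B36 had 1.03, 1.18 and 0.92 with BLM+INA and -0.47, -0.70 and -0.81 in control, a 3.26-fold rise. CYP71B23, known as a hydrogen-peroxide-inducible P450 of defence, had 1.16, 0.99 and 0.95 against -0.28, -0.01 and -0.50. Both were apart on every array. CYP71B24 rose by 1.35, CYP71B5 by 0.98, CYP71B29 by 0.88 and CYP71B6 by 0.62, while CYP718 fell by 0.74.

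Glycosyltransferases of the UGT family attach sugars to hormones, flavonoids and foreign compounds. Of 47 UGT probe sets 12 rose and 5 fell (median 0.12), or 25.5% and 10.6%, against 11.2% and 11.0% of all, and 3 fell without BLM+INA replicate 1. UGT87A2, linked to flowering time and stress, had 0.84, 0.85 and 0.85 with BLM+INA and -0.48, -0.55 and -0.40 in control, a 2.5-fold rise with the treated arrays nearly equal. UGT72E1, which glycosylates lignin precursors, rose by 1.14, and the abscisic acid glucosyltransferase UGT71B6 by 0.94. UGT71C1 went the other way, with -0.20, -0.14 and -0.57 under BLM+INA and 1.09, 0.60 and 0.43 in control (2.01-fold lower). UGT84A1, of the sinapate glucosyltransferases, fell by 0.51.

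The detoxification list gave 4 rises and 1 fall among 8 probe sets (median 0.31), or 50.0% and 12.5%. Over all probe sets 11.2% were higher and 11.0% lower. The list gave 2 rises without BLM+INA replicate 1 or without control replicate 2. The neighbouring tau-class glutathione transferase genes GSTU25 and GSTU26 moved in opposite directions. GSTU25 had 0.57, 0.40 and 0.46 with BLM+INA against 0.01, -0.43 and -0.07 in control, and rose by 0.64. GSTU26 had -0.46, -0.34 and -0.56 with BLM+INA against 0.52, 0.13 and 0.59 in control, and fell by 0.87. In all 11 GSTU probe sets 2 rose and 2 fell, with a median of 0.00. UGT73B4 rose by 0.59, and UGT73C1 and UGT73B1 passed at 0.36 each, but not without BLM+INA replicate 1 (0.34, adjusted p = 0.0861, and 0.26, adjusted p = 0.16).

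Anthocyanins are red pigments made late in the flavonoid pathway. DFR (AT5G42800), the dihydroflavonol reductase of that pathway, had 1.02, 1.01 and 0.94 with BLM+INA and -1.06, -1.39 and -0.94 in control, and rose 4.34-fold. UF3GT, a glycosyltransferase that decorates anthocyanins, had 0.19, 0.96 and 0.50 against -0.19, -0.45 and -0.26 and rose by 0.85. Both separated the groups. In all 3 of 5 members rose and 0 fell (median 0.45), or 60.0% higher against 11.2% of all probe sets. The third riser was the malonyltransferase gene AT5MAT at 0.45, whose call was lost without BLM+INA replicate 2 (0.28, adjusted p = 0.159), control replicate 2 or control replicate 3. BAN and UGT78D2 stood at -0.24 and -0.14 and did not pass.

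Of the 5 measured members of the iron and copper list 3 rose and 1 fell (median 0.94), or 60.0% higher and 20% lower against 11.2% and 11.0% of all probe sets. BHLH101 (AT5G04150), a transcription factor of the iron-deficiency response, had -0.17, 0.46 and 0.79 with BLM+INA and -1.57, -1.20 and -0.90 in control (3.0-fold). The regulator PYE had 0.31, 0.28 and 0.21 with BLM+INA and -0.88, -0.63 and -0.50 in control (1.91-fold). AT3G13610, the hydroxylase F6'H1 that makes iron-mobilising coumarins, rose 2.04-fold. The groups did not overlap for any of these. CCS, the copper chaperone for superoxide dismutase, fell by 0.72, and BGLU42 stood at 0.15 without passing.

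COR15A (AT2G42540), a chloroplast protein that protects membranes in the cold, had -1.60, -1.23 and -1.42 with BLM+INA and 0.26, 0.22 and 0.35 in control, a fall of 1.69 ± 0.13 on the log2 scale. Its neighbour COR15B had -1.29, -1.09 and -0.89 against 0.59, 0.78 and 0.87, and the dehydrin COR47 fell by 0.59 ± 0.11. All 3 lay below control on every array, as 18.3% of all probe sets did. The dehydrin LTI30 stood at 0.04 ± 0.12. STZ is the list's only riser, so 1 of 5 members rose and 3 fell (median -0.59). BZIP60, a sensor-activated factor of the unfolded protein response, rose by 0.99 ± 0.12 with 0.79, 0.65 and 0.79 under BLM+INA against -0.33, -0.29 and -0.11 in control. It was the only one of 9 endoplasmic reticulum probe sets that passed (median 0.17), or 11.1% higher, near the 11.2% of all. Without control replicate 2, 2 passed. Of 3 oxidative stress members STZ and GRX480 rose and NDB2 (0.28, adjusted p = 0.279) did not pass, and the single heat shock gene measured, ATHSP22.0, stood at 0.10 (adjusted p = 0.509).

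Of 8 auxin probe sets 1 rose and 0 fell (median -0.09), or 12.5% higher. This share was near the 11.2% of all probe sets, of which 11.0% were lower. The riser was GH3.3 (AT2G23170), an enzyme that ties auxin to amino acids. GH3.3 had 1.01, 0.69 and 0.87 under BLM+INA and -1.19, -1.09 and -1.03 in control. The rise was 3.90-fold and the groups were far apart. In the list of cytokinin, gibberellin and brassinosteroid genes, the gibberellin receptor gene GID1A rose by 0.49 and the cytokinin response regulator gene RR16 fell by 0.67, with 4 of 6 not past the threshold (median -0.13), and 2 members fell without control replicate 2. Of 3 senescence members, SAG29 stood at -0.01 (adjusted p = 0.982), with 0.06, 0.12 and -0.15 under BLM+INA and -0.06, -0.08 and 0.18 in control, and only ATG8H passed, at -0.47, though not without BLM+INA replicate 1 (-0.36, adjusted p = 0.0656). ATG8B, a further autophagy gene, rose by 0.86 ± 0.15.

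Of 6 probe sets in the list for G2 and mitosis, 0 rose and 6 fell (median -0.85), against 11.0% of all probe sets lower. AUR2, an Aurora kinase of chromosome segregation and the plane of division, had -0.64, -0.80 and -0.63 with BLM+INA and 0.48, 0.72 and 0.77 in control (adjusted p = 2.11e-06). AUR1, its close relative, had -0.66, -0.71 and -0.39 against 0.39, 0.54 and 0.56. The falls were 1.35 ± 0.15 and 1.08 ± 0.11 on the log2 scale and the arrays did not overlap. AUR3 fell by 0.89, the phragmoplast kinesin KINESIN-12B by 0.80, the spindle checkpoint kinase BUBR1 by 0.70 and the cell division regulator TSO1 by 0.61. Each of these calls held with any single array left out.

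Against 11.2% of all probe sets higher and 11.0% lower, 1 of 5 DNA damage and repair probe sets rose and 0 fell (median 0.13). This was the DNA ligase gene ATLIG4 at 0.38, which lost its call without control replicate 1 (0.35, adjusted p = 0.055). Of 3 S phase probe sets, POLA3 passed at 0.36 but not without BLM+INA replicate 1 (0.25, adjusted p = 0.133), control replicate 2 or control replicate 3, and PRL stood at -0.33 (adjusted p = 0.0577) and passed without BLM+INA replicate 1 (-0.42, adjusted p = 0.0325). Few of the genes listed for either function were measured under a gene name, so these counts describe few members.

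Of 15 IQD probe sets, whose calmodulin-binding proteins sit on microtubules, 1 rose and 5 fell (median -0.12), or 33.3% lower against 11.0% of all probe sets. The falls became 1 without BLM+INA replicate 1, 2 without BLM+INA replicate 3 or without control replicate 2, and 3 without any 1 of the other 3 arrays, with 2 rises without control replicate 3. iqd21 had -0.93, -0.85 and -0.91 with BLM+INA and 0.28, 0.54 and 0.39 in control, a fall of 1.3 ± 0.10 without overlap. Of 15 TRM probe sets 0 rose and 4 fell (median -0.20), against 11.2% higher and 11.0% lower of all. TRM22 fell by 0.71. TRM34 lost its call without BLM+INA replicate 1 (-0.34, adjusted p = 0.142), BLM+INA replicate 2, control replicate 1 or control replicate 3. TRM25 was not called, but passed without BLM+INA replicate 1 (-0.40, adjusted p = 0.0397). Of 10 NET probe sets, whose proteins bind actin, 0 rose and 2 fell (median 0.01), NET3C by 0.89 and NET1A by 0.67. That is 20% of the NET probe sets changed, near the 22.2% of all. UBC20, a ubiquitin-conjugating enzyme known from mitosis, had -0.55, -0.42 and -0.46 with BLM+INA against 0.36, 0.39 and 0.43 in control and fell by 0.87.

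**Figure D3:**
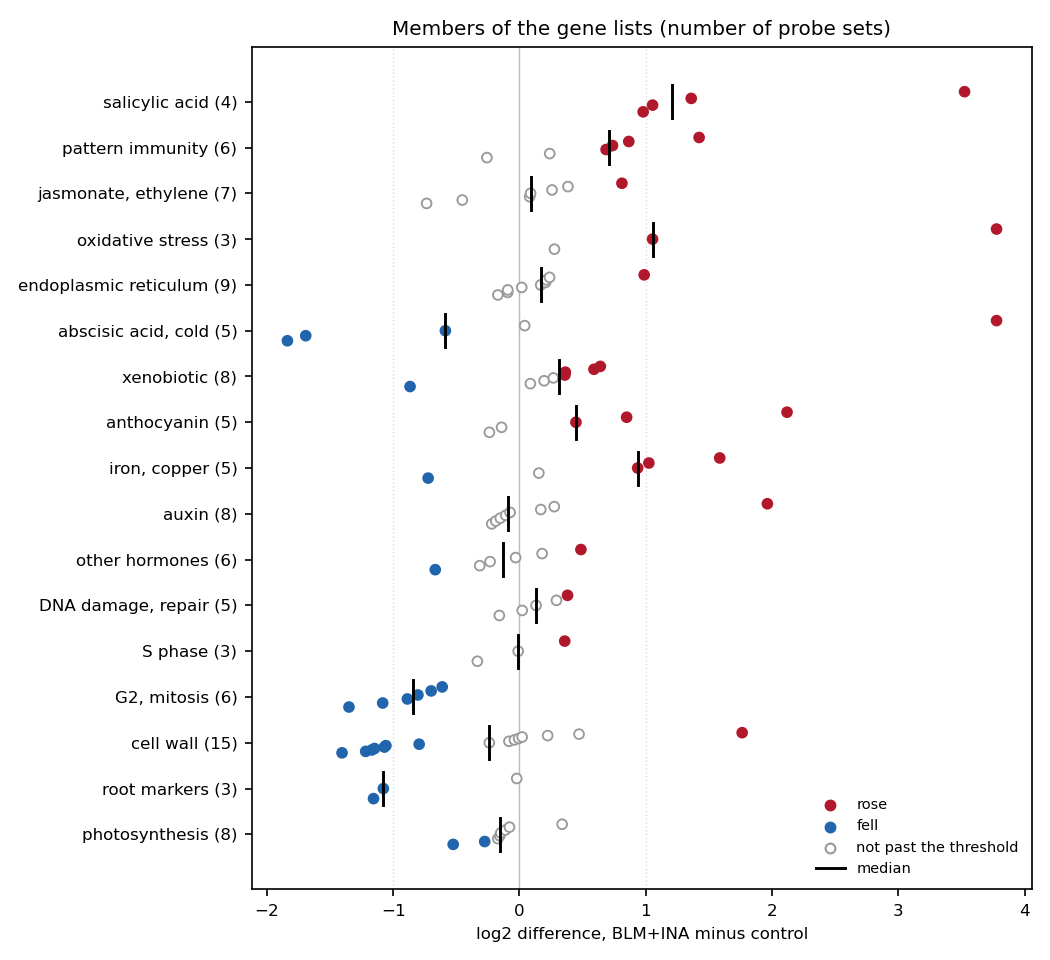
Log2 difference, BLM+INA minus control (x axis), of each measured member of 17 gene lists (rows, with the number of probe sets), in red where it rose, blue where it fell and open where it did not pass the adjusted p of 0.05, with a bar at the list's median. The 4 salicylic acid members all lie right of 0 and the 6 mitosis members all left of 0.

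The largest named fall was that of a lectin gene. AT1G52070, AT1G52060 and AT1G52050 are 3 neighbouring loci of the jacalin lectin family. AT1G52070 had -2.05, -1.03 and -2.08 with BLM+INA and 1.87, 1.03 and 1.67 in control (-3.24 ± 0.24 on the log2 scale, adjusted p = 2.33e-08). AT1G52060 had -1.60, -1.51 and -1.46 with BLM+INA against 1.4, 1.04 and 1.25 in control. AT1G52050 had -1.34, -0.94 and -1.38 against 1.31, 0.94 and 1.28. Replicate 2 was the least extreme in both groups for the first and the last of these 3 genes.

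Class III peroxidases use hydrogen peroxide to cross-link or loosen walls, and many are made in roots. Of 73 listed loci 55 were measured, of which 3 rose and 21 fell (median -0.16), or 5.45% higher and 38.2% lower against 11.2% and 11.0% of all probe sets. AT4G26010 had -2.15, -1.27 and -1.64 with BLM+INA and 1.36, 1.43 and 1.67 in control. AT3G49960 had -0.86, -0.99 and -1.24 against 1.44, 1.28 and 1.29, which is 5.16-fold lower. AT5G64100 had -0.80, -0.94 and -0.93 against 1.22, 1.01 and 1.01, which is 3.92-fold lower. AT5G64100, not bound by the rule for naming, was lower on each treated array as well. The loci next to AT5G64100 fell too, AT5G64110 by 0.84 and AT5G64120 by 1.38.

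Further down the peroxidase family, AT5G15180 fell by 1.53, AT3G01190 by 1.31 and AT1G30870 by 1.26. In all, the BLM+INA arrays of 22 members lay below the control arrays and those of 8 members above them, against 18.3% below and 19.3% above over all probe sets. The exceptions that rose were AT4G36430, with 0.81, 0.69 and 0.80 under BLM+INA against -0.90, -0.46 and -0.49 in control (2.61-fold), AT2G41480 (1.05 ± 0.13) and PRX52. PRX52 stood at 0.43 and lost its call without BLM+INA replicate 1 (0.29, adjusted p = 0.112) or control replicate 2 (0.38, adjusted p = 0.0801).

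The root hair expansins EXPA7 and EXPA18, which loosen the wall of the growing hair, fell by 1.16 ± 0.12 and 1.08 ± 0.11 on the log2 scale. EXPA7 had -0.34, -0.70 and -0.52 with BLM+INA against 0.54, 0.51 and 0.86 in control. The third measured root marker, PYK10, a glucosidase of the endoplasmic reticulum bodies, had -0.03, 0.06 and 0.04 with BLM+INA and 0.19, 0.03 and -0.09 in control, with overlapping groups and a difference of -0.02 ± 0.10 (adjusted p = 0.92). So 2 of 3 root markers fell, against 11.0% of all probe sets lower.

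In the cell wall list 1 of 15 probe sets rose and 7 fell (median -0.24), or 6.67% and 46.7%, against 11.2% and 11.0% of all probe sets. XTH18, a xyloglucan endotransglucosylase that cuts and joins wall polymers, had -0.77, -0.70 and -0.34 with BLM+INA and 0.63, 0.88 and 0.89 in control, a fall of 1.4 ± 0.13. EXPA15 had -0.46, -0.60 and -0.73 against 0.83, 0.46 and 0.57 and fell by 1.22. Both were below control on all arrays. EXPB1 fell by 1.17, EXPA8 by 1.15, XTH19 (next to XTH18 on the chromosome) by 1.07, EXPB3 by 1.06 and XTH20 by 0.79. The riser was ATPMEPCRB (AT4G02330), a pectin methylesterase known from pathogen responses, with 1.03, 0.99 and 1.13 under BLM+INA against -1.08, -0.60 and -0.46 in control (3.4-fold).

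Over all probe sets 11.2% were higher and 11.0% lower. By family, 0 of 10 EXPA probe sets rose and 6 fell (median -0.43), and 0 of 9 XTH probe sets rose and 4 fell (median -0.32), with XTH16 at -1.24. EXPA9 was the weakest of these calls, lost without BLM+INA replicate 1 (-0.33, adjusted p = 0.104), BLM+INA replicate 3 or control replicate 1. Of 15 GH9 endoglucanase probe sets 0 rose and 6 fell (median 0.08), but only 2 fell without control replicate 1, and 4 without any 1 of the BLM+INA arrays or without control replicate 2. GH9B8 had -0.99, -0.64 and -1.09 with BLM+INA against 0.58, 0.32 and 0.26 in control, and GH9C1 fell by 0.66. GH9C2, GH9B13, GH9B7 and GH9B18 were the members whose calls were lost without control replicate 1, GH9C2 with -0.67 (adjusted p = 0.0621). Of 22 TBL probe sets, whose proteins acetylate wall polysaccharides, 2 rose and 3 fell (median -0.06). These are 9.09% and 13.6%, near the 11.2% and 11.0% of all probe sets. TBL26 was higher by 1.16, TBL41 stood at -1.47 and TBL39 at -0.73.

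Of 11 RALFL probe sets, for rapid alkalinization peptides that restrain growth, 1 rose and 4 fell (median -0.13). Over all probe sets 11.2% were higher and 11.0% lower. Only 2 RALFL probe sets fell without BLM+INA replicate 1 or without control replicate 3. RALFL27 had -1.16, -0.73 and -0.69 with BLM+INA and 0.72, 0.88 and 0.88 in control, without overlap. RALFL34, known from lateral root initiation, fell by 0.76. RALFL22, RALFL24 and RALFL33 were called, but each lost its call without BLM+INA replicate 1 (-0.28, adjusted p = 0.184; -0.25, adjusted p = 0.166; 0.43, adjusted p = 0.0571) and without at least 2 other single arrays. The defensin-like gene PDF2.5 (AT5G63660) had -1.06, -1.21 and -0.88 with BLM+INA and 1.26, 1.33 and 1.51 in control, a fall of 2.41 ± 0.19, and PDF2.1 fell by 0.68. The subtilases SBT1.3 and SBT4.12 fell by 0.82 and 0.75. SWEET4, a sugar transporter, had -0.51, -0.71 and -0.66 with BLM+INA and 0.97, 0.43 and 0.96 in control (-1.42 ± 0.16). It was the only one of 14 SWEET probe sets that passed, whereas 22.2% of all probe sets did.

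Other large falls were of genes with several roles. AT1G13650 fell by 3.18 ± 0.18, AT1G50060, of the PR-1-like secreted proteins, by 2.71 ± 0.17 and AT1G10640, a polygalacturonase that cuts pectin, by 2.12 ± 0.11. AT1G62510, of the lipid transfer family, had -1.50, -1.49 and -1.53 with BLM+INA against 0.43, 0.75 and 0.56 in control, and AT4G22490 of the same family had -1.53, -1.26 and -0.72 against 0.75, 1.05 and 0.96. Both fell, whereas AT5G55450 of that family was among the 5 largest rises. AT5G33370, a GDSL-type lipase, fell by 2.1 ± 0.12.

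**Figure D4:**
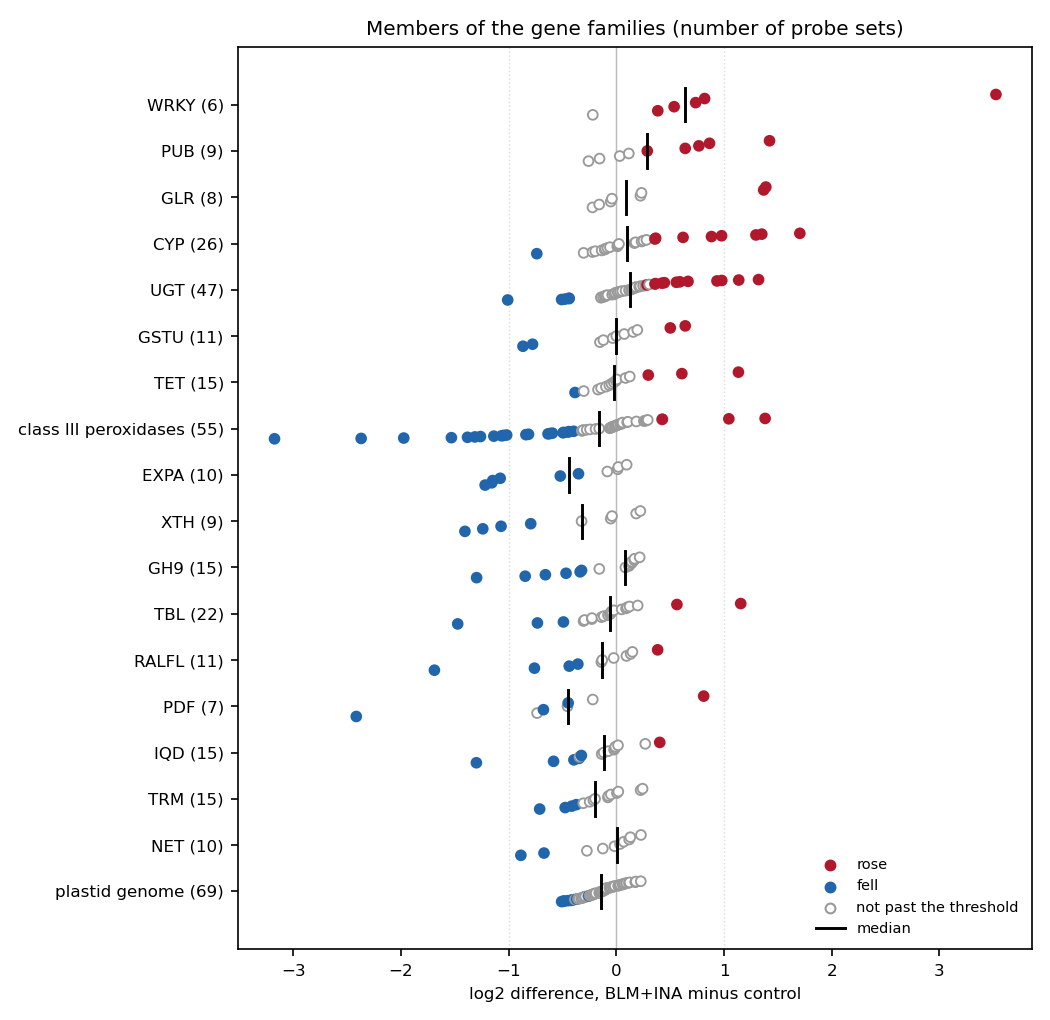
Log2 difference, BLM+INA minus control (x axis), of each probe set in 18 gene families (rows, with the number of probe sets), in red where it rose, blue where it fell and open where it did not pass the adjusted p of 0.05, with a bar at the family's median. Peroxidases extend left to -3.17 and right to 1.38, and the EXPA and XTH families hold no riser.

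Of 8 photosynthesis probe sets 0 rose and 2 fell (median -0.15), or 25.0% against 11.0% of all probe sets lower, and 5 lay below control on every array, which 18.3% of all probe sets did. PSAN had -0.12, -0.33 and -0.23 with BLM+INA and 0.31, 0.34 and 0.24 in control (1.44-fold lower). LHCB4.2, of the antenna proteins, passed at -0.28, but its call was lost when any single array was left out, with values from -0.30 to -0.22. Of 69 probe sets of the plastid genome 0 rose and 9 fell (median -0.14), which is 13.0%, near the 11.0% of all probe sets that were lower. The 9 falls became 3 without control replicate 1, with 1 rise, and 4 without BLM+INA replicate 2 or without BLM+INA replicate 3. psbE, a subunit of photosystem II, had -0.33, -0.40 and -0.37 with BLM+INA and 0.20, 0.14 and 0.02 in control, a fall of 0.49 ± 0.11. The ribosomal protein genes rps3 and rps15 fell by 0.42 and 0.40. The BLM+INA arrays lay below the control arrays in 17 of the 69 and above them in 2, against 18.3% and 19.3% of all probe sets.

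Neither of the 2 measured members of the list of indole compounds and glucosinolates passed (-0.03 and -0.02), nor did either of the 2 circadian genes (-0.25 and -0.19). In the nutrient transport list SWEET4 was the only one of 3 members that passed (median -0.02), against 22.2% of all probe sets.

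Each agent's own difference from the same 3 control arrays was set beside that of the combination for named genes. These differences share the control arrays, so they are given side by side. For AT5G03350 the log2 difference was 5.85 with BLM+INA, 2.03 with BLM and 4.94 with INA, and for AT1G35710 it was 4.39, 0.69 and 2.45 in the same order. WRKY53 had 3.52, 0.84 and 0.55, and AT5G52760 had 3.70, 0.49 and 0.74. For these 4 genes the combination gave the highest of the 3 values. GLR1.4 had 1.37 with BLM+INA, -0.02 with BLM and 0.12 with INA, and CYP71B23 had 1.3, 0.06 and 0.25.

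Other genes had values near those of a single agent, or between them, or further out than either. AT5G60250 had 4.97 with BLM+INA, 4.97 with BLM and 0.40 with INA, while AT2G32160 had 3.17, 0.19 and 3.16. DFR had 2.12 with BLM+INA, 3.5 with BLM and -0.99 with INA, so the combination lay between the single agents. SAG29 did so too, with -0.01 under BLM+INA, 1.43 under BLM and -0.62 under INA. COR15A had -1.69 with BLM+INA, -0.26 with BLM and -0.41 with INA, and EXPB3 had -1.06, -0.30 and -0.23. The jacalin lectin gene AT1G52070 had -3.24, -3.48 and -0.10 in the same order, and AUR2 had -1.35 with BLM+INA, -1.50 with BLM and -0.04 with INA.

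**Figure D5:**
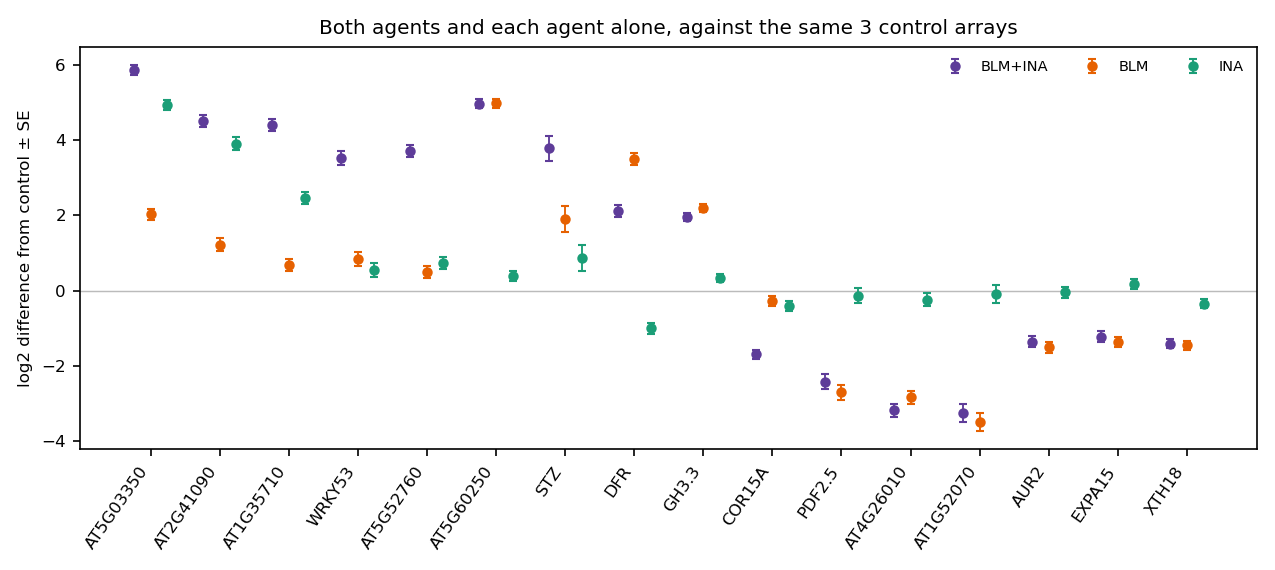
Log2 difference from the 3 control arrays (y axis, point ± SE) for 16 genes (x axis) in BLM+INA, BLM and INA. WRKY53 and AT5G52760 are highest with both agents, AT5G60250 and AT1G52070 lie at similar values with BLM+INA and BLM, and DFR with BLM+INA lies between the single agents.

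In direct tests BLM+INA differed from BLM in 5.81% of probe sets and from INA in 18.8%. Of the 20 largest named rises, 18 were also higher than in the BLM group and 2 did not pass (median difference 2.5), and 17 were higher than in the INA group and 3 did not pass (median 1.96). The 20 largest falls gave another picture: 3 were lower than in the BLM group and 17 did not pass (median 0.21), whereas 20 of 20 were lower than in the INA group (median -2.27). The 3 that were lower than with BLM were AT1G13650, AT1G62510 and AT1G10640. These genes were ranked by the comparison with control, so these counts describe them and do not test the list. For DFR the direct difference was -1.38 from BLM (adjusted p = 9.3e-06) and 3.11 from INA, and for COR15A it was -1.43 from BLM and -1.28 from INA.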

How the data were processed

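The deposited values are log2 values, made by the authors with RMA per the submitters' processing notes, with no version given. The values of each probe set have a median of 0 across the 12 arrays, so no levels were compared. Of 22810 probe sets, 64 control probe sets were set aside. A gene table paired 13513 with 1 gene and 503 with several, and 8730 are not listed in it. RefSeq symbols (TAIR10.1) matched all but 77 of the 13513.

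A linear model with a mean for each of the 4 groups was fitted to the 12 arrays in limma 3.58.1 (R 4.3.3; 8 residual and 8.82 prior degrees of freedom). Two-sided p-values of each contrast were adjusted by Benjamini-Hochberg over 22746 probe sets, with a threshold of 0.05. The model was tested on simulated data. Plots used Python 3.11.15 and matplotlib 3.10.9. No depth exists for arrays, so their number limits the precision.

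Named genes were the 20 largest rises and 20 largest falls past the threshold among probe sets with 1 gene, with every array of one group above every array of the other, and members of the lists. Members and lists were chosen with earlier results of these data known. Of 1112 symbols in 22 lists, 113 loci were measured under a gene name. The gene table holds no descriptions, so families planned by description were replaced by 42 symbol stems with at least 6 probe sets. These, the peroxidase loci and the further symbols given at the end were chosen after their values were seen. Some stems mix families: PDF also holds peptide deformylases. What a locus without a symbol encodes is background knowledge. Same-numbered arrays of both groups deviated from their group means with correlations of 0.0552, 0.0213 and 0.353. For differently numbered arrays the correlations lay between -0.267 and 0.229. These few values do not settle whether the numbers pair the arrays. The main model took no pairing. Alternatives were other normalizations, variance models, filters, a replicate block, a stricter threshold and each of 6 arrays left out.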

Additional observations from a re-analysis of the deposited data

How the results depend on the processing

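The count of changed probe sets, 5047, was 2583 (1301 higher and 1282 lower, 428 at least 2-fold) when only probe sets with 1 gene were tested, which are fewer tests, and 3352 (1612 lower) at an adjusted p of 0.01. With 1 array left out it lay between 3981 (without control replicate 1) and 4372 (without BLM+INA replicate 2), with 857 to 939 changed at least 2-fold. With the replicate number as a block it was 5762, which changed no count of calls by over 1.5 times. The 6 arrays alone gave 5036, centred arrays 5114, quantile normalization 4953, array weights 5799, unmoderated variances 4329, and probe sets with a lowest level of at least 4 gave 4595. At an unadjusted p of 0.05, 7227 probe sets passed.

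Of 433 genes followed through 15 settings, 221 were called, of which 167 kept their call in every setting and 54 lost it in at least 1. Of the 212 not called, 43 passed in at least 1 setting, and 0 reversed a call. None of the 40 largest rises and falls lost its call in a setting that tested it. The cause of the lost calls was not tested. Signal over background is not known from centred values, so calls for dim probe sets have no check of that kind, and 3464 probe sets have no level class.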

Other observations

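Genes with a symbol that no list or rule had named were looked at after their values were seen. The array holds 1551 tested probe sets with a symbol other than the locus. Among these, 36 were at least 2-fold higher and 33 at least 2-fold lower with BLM+INA, genes named above included. Over all probe sets the shares were 2.51% and 1.43%. The 36 and 33 were counted only where they passed the threshold without overlap between the arrays of both groups. Among the higher ones, ICL, the isocitrate lyase of the glyoxylate cycle, had 1.71, 1.68 and 1.07 with BLM+INA and -1.03, -0.64 and -1.09 in control. PPDK, the pyruvate phosphate dikinase, had 0.73, 0.78 and 0.57 with BLM+INA and -1.0, -0.75 and -0.74 in control. Both enzymes belong to the mobilisation of stored carbon. CHI (AT2G43570), a chitinase, rose by 2.08 ± 0.12 (limma adjusted p = 8.13e-10), the osmotin-like OSM34 by 1.1 ± 0.13 and OPCL1, a ligase of jasmonate synthesis, by 1.09 ± 0.15. OPCL1 had a log2 difference of 0.11 with BLM alone and 0.06 with INA alone.

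Among the lower ones, UPB1, a transcription factor that limits root growth through peroxidases, had -0.98, -0.53 and -0.77 with BLM+INA and 0.53, 0.59 and 1.09 in control. The chromatin protein gene 3xHMG-box2, known from mitosis, had -0.77, -0.59 and -0.72 with BLM+INA and 0.71, 0.65 and 0.62 in control. It lies next to WRKY53 in the RefSeq table, which rose by 3.52, so the neighbours moved in opposite directions. The histone gene HTB1 fell by 1.02 ± 0.11 and the actin gene ACT11 by 1.14 ± 0.11, while the thionin gene THI2.2, of a class of antimicrobial peptides, fell by 1.12 ± 0.13.

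The largest change of all belongs to a probe set with no gene name here. Probe set 256766_at had 2.5, 2.37 and 2.43 with BLM+INA and -6.14, -5.74 and -5.56 in control, a difference of 8.25 ± 0.31 or 304-fold, with 3.07 for BLM alone and 8.01 for INA alone. Probe set 265837_at had 3.69, 3.41 and 3.53 with BLM+INA and -3.59, -3.07 and -3.18 in control (113-fold). The unnamed probe sets given here were taken only from those past the threshold without overlap, so their separation was required. Probe set 266385_at differed by 6.01 ± 0.59 with BLM+INA, against 0.73 with BLM alone and 1.86 with INA alone. The largest unnamed fall, 267457_at, had -1.55, -1.70 and -1.66 with BLM+INA and 1.69, 1.87 and 1.95 in control.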
